A study of Mus musculus with 3 samples.

Results

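Solute carriers are membrane proteins that move ions, sugars, amino acids, nucleotides, lipids and metals across cell and organelle membranes, and their gene symbols start with Slc. The genes described here were chosen by their measured level: a symbol of Slc followed by a digit, at least 1 annotated protein-coding transcript, and a gene level of at least 1 TPM (a length-corrected share of all transcripts in a library) in each of 3 libraries. The rule found 140 of 371 measured carrier genes, or 37.7%, against 35.9% of all 21901 genes with a protein-coding transcript. That share is near the background, and since the rule used these levels, all levels below are descriptions without a test.

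The RNA came from the chromatin fraction of mouse bone-marrow-derived macrophages (BMDM) of strain C57BL/6J, in primary culture. All 3 libraries, biological replicates 1, 2 and 3, came from cells given 100 ng/ml of Lipid A, the part of bacterial endotoxin that Toll-like receptor 4 recognises, for 60 minutes. No unstimulated library and no other fraction was analysed here, so no value below is a response to Lipid A. The libraries started from 1 µg, 250 ng and 500 ng of RNA (replicates 1, 2 and 3), and the labels give all 3 the same donor entry, with age and sex not collected. Whether the replicates were separate animals or cultures is not given beyond the words biological replicate. Chromatin-bound RNA holds transcripts still being made or spliced, so its levels are not those of finished mRNA.

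Macrophages take up and digest other cells and microbes. Carriers in the membranes of their endosomes and lysosomes export the digested amino acids, peptides, sugars and metals, and set the pH there. Some of these carriers are known for holding iron and manganese back from ingested bacteria, or for delivering fragments of bacterial walls and nucleic acids to receptors inside the cell. Carriers of the plasma membrane supply cystine for glutathione, arginine, glutamine and glucose, and the mitochondrial family Slc25 moves metabolites, phosphate, nucleotides and iron across the inner mitochondrial membrane.

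The gene tables held 13318395, 15352661 and 15812581 expected counts on genes in replicates 1, 2 and 3. The detected carriers took 0.929%, 0.941% and 0.904% of these counts in the same order, the lowest share being in replicate 3. The mean was 0.925% ± 0.0189 (SD, n = 3). In the gene tables, all 10 macrophage markers were detected, and 0 of the listed T cell, B cell, neutrophil, erythroid, fibroblast and mast cell markers were. Cd4 (1.14 TPM on average) and Alas2 (1.86 TPM) had the highest means among these and missed the threshold in at least 1 library. In a second set of tables, with kallisto's column names, the highest means among them were those of Cd3d (25 TPM), Alas2 (4.94 TPM) and Ms4a1 (3.05 TPM). Cd3d had 0 TPM in the gene tables. Of the 5 endothelial markers, Vwf (45.6 TPM on average) and Kdr (1.95 TPM) were detected. Their part in the carrier levels was not tested. The summed TPM of the detected carriers was 2833, 3715 and 3460 in replicates 1, 2 and 3. By TPM, library 1 was thus lowest, unlike by share of counts, and library 2 was highest, as it was by share of counts. That order was not particular to carriers: library 2 held the highest TPM of 67.9% of the detected carriers and of 61.5% of all detected genes with a coding transcript, and library 1 the lowest TPM of 75.0% and 75.8%. In these bulk libraries, fewer cells of a type and less RNA per cell cannot be told apart.

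The carrier level was steeply graded. On average over the libraries, 8 genes reached at least 100 TPM, 52 lay between 10 and 100 TPM and 80 lay below 10 TPM. The median mean TPM was 7.26 for the detected carriers and 8.17 for the other detected genes with a coding transcript. The 10 highest carriers made up 42.9% ± 2.58 of the summed carrier TPM (SD, n = 3). Of 49 numbered families, 39 had a detected gene. The 10 families with none were Slc13, Slc14, Slc32, Slc33, Slc34, Slc45, Slc47, Slc48, Slc51 and Slc52, and 103 of the 371 genes had a count of 0 in every library.

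**Figure D1:**
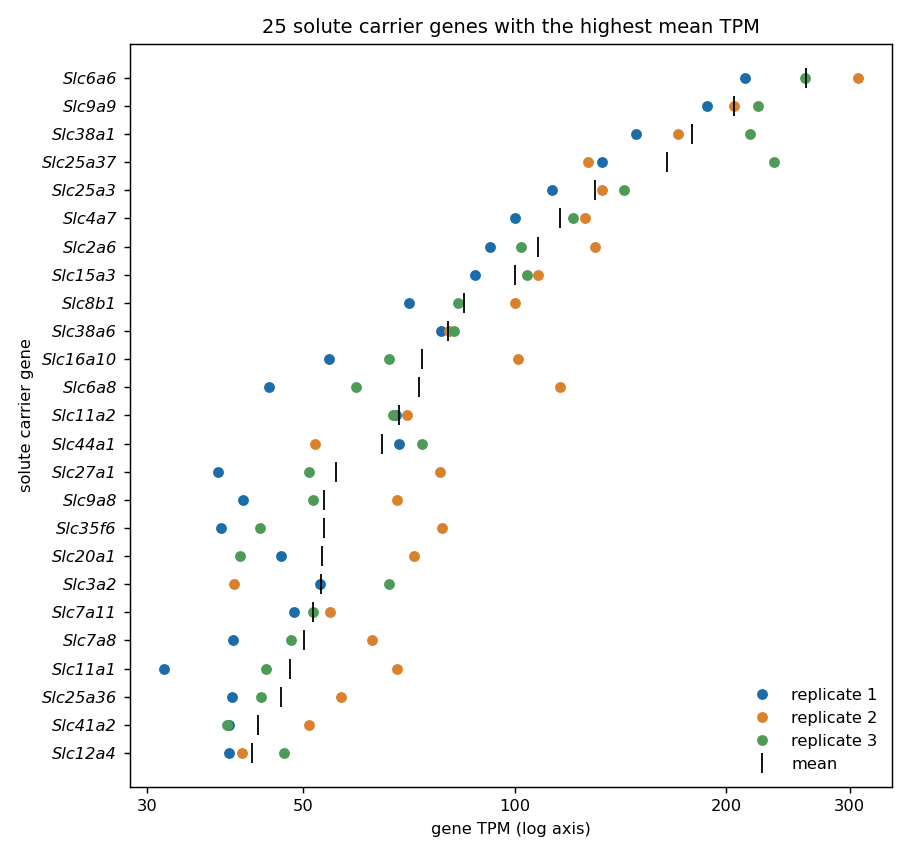
Gene TPM (log axis) of the 25 detected solute carriers with the highest mean, 1 point per library and a bar at the mean. Slc6a6 leads with a mean of 260 TPM, and library 1 is the lowest point for most of the genes.

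The highest carrier was Slc6a6, the taurine transporter of the plasma membrane (chromosome 6, 91684053 to 91759066, mm10, plus strand). Its TPM was 213, 308 and 259 in replicates 1, 2 and 3, a mean of 260 ± 47.7 (SD, n = 3). Slc9a9, a sodium/proton exchanger of endosomes, followed at 188, 205 and 222 TPM, and Slc38a1, a glutamine and neutral amino acid importer, at 149, 171 and 216 TPM. The ranges of Slc6a6 and Slc9a9 overlapped, as did those of Slc9a9 and Slc38a1, although each single library had the 3 genes in this order.

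The fourth gene was Slc25a37, mitoferrin-1, which imports iron into mitochondria, at 133, 127 and 234 TPM. Replicate 3 stood above both others. The deposited credibility intervals of this gene were wide, 129 to 342 TPM in replicate 3 and 49.9 to 173 TPM in replicate 2, and overlapped. A single protein-coding transcript of 342 bases held 53.1% of its TPM, and 3 other detected genes of uncertain or antisense class overlap its locus, Gm20236 at 160 TPM on the same strand and Gm27222 and Gm31748 on the opposite one.

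Slc25a3, the mitochondrial phosphate carrier, had 113, 133 and 143 TPM. Its gene also holds a detected small nucleolar RNA, Gm24119, at 222 TPM on the same strand, and reads from such a nested gene can be divided between both. Slc4a7, a sodium bicarbonate cotransporter that raises cell pH, had 100, 126 and 121 TPM. Slc2a6, a hexose carrier of lysosomes, had 92.1, 130 and 102 TPM, and Slc15a3, a lysosomal exporter of histidine and small peptides, 87.9, 108 and 104 TPM. Neighbours in this order overlapped in range.

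Below them stood Slc8b1, the mitochondrial sodium/calcium exchanger, at 84.6 ± 14.7 TPM, and Slc38a6, a member of the glutamine carrier family, at 80.3 ± 1.72 TPM (SD, n = 3 each). Slc16a10, an aromatic amino acid carrier, had 54.4, 101 and 66.2 TPM. Slc6a8, the creatine importer, had 44.7, 116 and 59.4 TPM. Slc11a2, which carries iron and other divalent metals from endosomes to the cytosol, had 67.8, 70.2 and 67.2 TPM. Library 2 was far above the others for Slc16a10 and Slc6a8 and close to them for Slc11a2. Slc41a2, a magnesium carrier, averaged 43.1 TPM, and Slc12a4, a potassium/chloride cotransporter, 42.3 TPM.

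The genes were grouped by family number into broad roles, each named for what most of its families carry. Slc16a10, an aromatic amino acid carrier, thus counts among the carboxylate and sulfate carriers, and all Slc25 genes form the mitochondrial group. Inorganic ion and pH carriers had 16 of 46 genes detected with a median log2(TPM + 1) of 4.58 ± 0.02, and amino acid and neurotransmitter carriers 20 of 63 with a median of 4.25 ± 0.08 (SD of the library medians, n = 3 each). Metal and heme carriers were detected for 21 of 33 genes, with a median of 3.69 ± 0.25. Mitochondrial carriers were detected for 29 of 47 genes, but at a median of 2.51 ± 0.25. Nucleotide sugar carriers of the Golgi and endoplasmic reticulum family had 14 of 27 genes detected, at 2.52 ± 0.34. Organic ion carriers and others, a group with many kidney and liver genes, had 6 of 42 detected, at 1.93 ± 0.33.

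Smaller groups completed the picture. Peptide carriers had 3 of 5 genes detected at a median of 5.20, lipid, choline and acetyl carriers 5 of 22 at 3.11, and sugar carriers 8 of 29 at 2.92. Carboxylate and sulfate carriers had 8 of 32 detected at 2.79, and nucleoside and vitamin carriers 7 of 21 at 2.40. The symbol rule also took in 3 genes that are named for a carrier and are not carriers themselves: Slc9a3r1, an adaptor protein, at 18.3 TPM, Slc7a6os at 11.9 TPM and Slc4a1ap at 8.11 TPM.

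**Figure D2:**
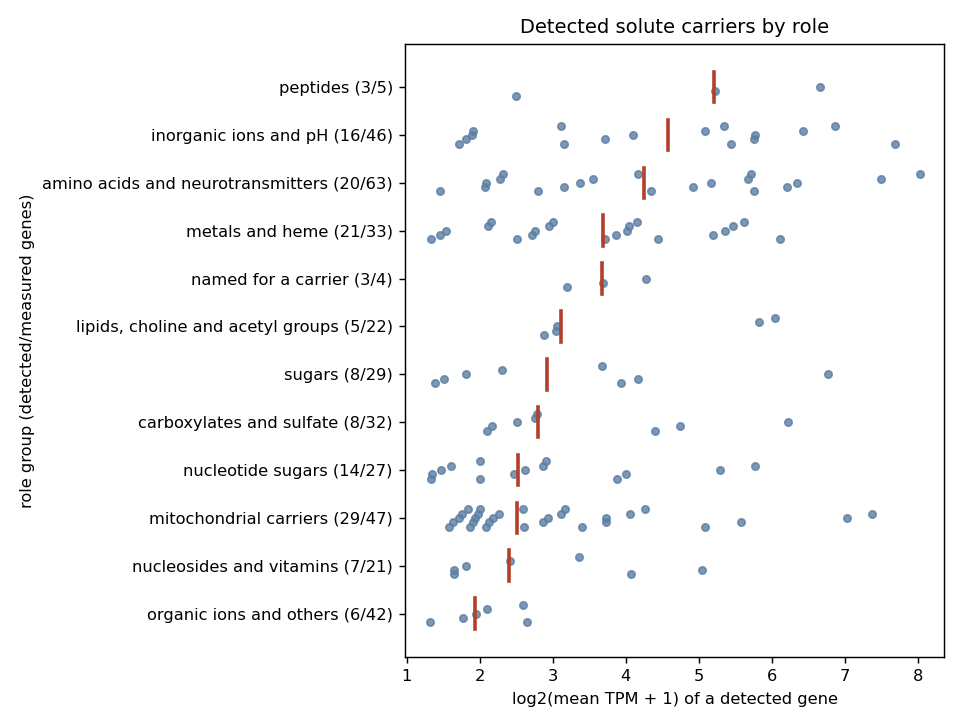
Level of each detected gene, as log2 of mean TPM + 1, by role group, with a red bar at the mean of the library medians. The label gives detected over measured genes, such as 29/47 for mitochondrial carriers, whose median of 2.51 lies below the 4.58 of inorganic ion carriers.

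The groups from here on are lists chosen with earlier results of these data known, so their detected counts are not a trait of a pathway. Over all carriers 37.7% were detected, and over all genes with a protein-coding transcript 35.9%. Among listed endolysosomal carriers, 12 of 15 measured genes were detected, and the group summed to 367 ± 47.0 TPM (SD, n = 3). Slc2a6 and Slc15a3, described above, led it. Slc11a1, the phagosomal metal exporter known as NRAMP1, had 31.7, 67.9 and 44.3 TPM, lowest in replicate 1 and highest in replicate 2. Slc15a4, a lysosomal peptide and histidine carrier known in mice for its place in signalling by endosomal Toll-like receptors, had 43.9, 27.7 and 37.6 TPM. Its credibility intervals overlapped (29 to 72.1, 22 to 65.2 and 24 to 77.5 TPM). Replicate 2, lowest in TPM, was highest in expected counts (708, 763 and 704). It was also highest in the TPM of the second set of tables, with kallisto's column names (48.2, 54.9 and 35.3). Slc26a11, a sulfate carrier, averaged 20.0 TPM, Slc38a9, an arginine sensor and amino acid exporter of lysosomes, 19.3 TPM, and Slc38a7, a glutamine exporter, 17.0 TPM. Slc48a1, the heme exporter of lysosomes, fell outside the rule at 0.89, 2.75 and 0.92 TPM, and Slc2a8 averaged 0.477 TPM.

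For sensing of nucleic acids and cell wall fragments in endosomes, 4 of 5 listed carriers were detected. They were Slc15a3 and Slc15a4 with Slc46a3 (2.52 TPM on average) and Slc29a3 (2.14 TPM), while Slc46a2 averaged 0.260 TPM. Of 10 partners outside the family, 8 were detected. Unc93b1, the chaperone that escorts endosomal Toll-like receptors, averaged 52.6 TPM, and the receptor genes Tlr7 and Tlr8 had 28.4 and 7.97 TPM. The transcription factor genes Irf5 and Irf7 had 45.8 and 23.3 TPM. The cytosolic sensors of cell wall fragments, Nod1 and Nod2, had 26.0 and 32.8 TPM, and their kinase Ripk2 36.6 TPM. Tlr9 had 0.86, 1.26 and 1.21 TPM, and Tlr3 averaged 0.757 TPM.

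For iron and related metals, 6 of 9 listed carriers were detected. After Slc25a37, Slc11a2 and Slc11a1 came Slc25a28, mitoferrin-2, at 13.2, 19.0 and 22.1 TPM and Slc39a14, a zinc and iron importer, at 12.9, 18.2 and 14.9 TPM. Slc40a1, ferroportin, the iron exporter of the plasma membrane, had 3.74, 4.23 and 6.16 TPM, all below the lowest value of Slc39a14. Slc39a8 averaged 0.603 TPM and Slc46a1, a folate and heme carrier, 0.0200 TPM. Of 11 partners, 9 were detected: the ferritin genes Fth1 (356 TPM) and Ftl1 (110 TPM), the heme exporter gene Flvcr1 (41.5 TPM), the iron regulatory protein genes Ireb2 (19.9 TPM) and Aco1 (12.3 TPM), Ncoa4 (13.4 TPM), which targets ferritin for degradation, the transferrin receptor gene Tfrc (10.8 TPM), Cp (8.32 TPM) and Steap3 (2.08 TPM). The heme oxygenase gene Hmox1 had 1.28, 2.45 and 0.97 TPM and missed the threshold in 1 library, and Flvcr2 averaged 0.103 TPM.

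All 6 listed cationic amino acid and cystine carriers were detected. The list is a part of its families: of 16 measured Slc7 genes 8 were detected, and Slc7a3, outside the list, was not (0.87, 1.00 and 1.47 TPM). Slc7a11, the cystine importer that supplies glutathione synthesis, had 48.5, 54.6 and 51.6 TPM. Slc3a2, the heavy chain that brings several Slc7 carriers to the cell surface, had 52.9, 39.9 and 66.3 TPM. Their ranges overlapped in the gene tables, but not with kallisto, where Slc3a2 had 212, 178 and 208 TPM and Slc7a11 62.9, 60.4 and 56.4 TPM. The light chains Slc7a7 and Slc7a6 averaged 10.7 and 3.21 TPM, and the arginine importers Slc7a1 and Slc7a2 averaged 3.85 and 3.23 TPM, with ranges that overlapped. Of 9 partners, Nfe2l2, which encodes the factor NRF2 (78.4 TPM), Gss (8.31 TPM), Asl (7.11 TPM), Gclc (2.15 TPM) and Arg2 (1.49 TPM) were detected. The nitric oxide synthase gene Nos2 had 1.23, 0.33 and 1.58 TPM, and Gclm, Arg1 and Ass1 averaged 0.787, 0.260 and 0.230 TPM.

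Neutral amino acid carriers linked to the growth regulator mTORC1 were detected for 8 of 9 listed genes. Slc38a1 led, and Slc7a8, a large neutral amino acid exchanger, had 39.7, 62.7 and 48.1 TPM. Slc38a2, a glutamine importer, averaged 34.8 TPM, Slc43a2, a large neutral amino acid carrier, 29.3 TPM, Slc36a1, a lysosomal amino acid exporter, 5.95 TPM, and Slc1a5, the glutamine exchanger, 3.97 TPM. Slc7a5, the other light chain of this exchange with Slc3a2, was not detected, at 0.11, 0.70 and 0.43 TPM.

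For glucose and lactate, 6 of 9 listed carriers were detected. Slc2a6 was the highest at 108 ± 19.9 TPM (SD, n = 3). Slc2a1, the GLUT1 glucose importer, had 3.67, 3.75 and 4.34 TPM, and Slc2a3, GLUT3, averaged 0.210 TPM. Slc37a2, a sugar phosphate exchanger, averaged 11.7 TPM and Slc37a4, the glucose 6-phosphate carrier, 1.85 TPM. The lactate and monocarboxylate carriers Slc16a7 and Slc16a3 had 5.87 and 4.71 TPM with overlapping ranges, against 0.297 TPM for Slc16a1. All 8 partners were detected. Among the glycolysis genes, Pfkfb3, a regulator of phosphofructokinase, averaged 210 TPM, the hexokinases Hk3, Hk2 and Hk1 averaged 175, 54.4 and 26.6 TPM, Pkm 27.3 TPM and Ldha 14.9 TPM. The monocarboxylate carrier chaperones Emb and Bsg averaged 4.49 and 2.65 TPM.

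All 5 listed mitochondrial carriers of the citrate and itaconate route were detected, within a narrow band. Slc25a1, the citrate carrier, averaged 7.98 TPM, Slc25a10, the dicarboxylate carrier, 6.65 TPM, Slc25a13 and Slc25a12, the aspartate/glutamate carriers, 6.31 and 5 TPM, and Slc25a11, the oxoglutarate carrier, 3.79 TPM. The partner Acod1, which makes itaconate, had 283, 210 and 249 TPM. Mpc1, a subunit of the pyruvate carrier, averaged 35.8 TPM, while its partner subunit Mpc2 had 0.60, 1.93 and 1.15 TPM and was below the threshold in replicate 1. Cs, which encodes citrate synthase, averaged 19.1 TPM, Ucp2, an uncoupling protein gene, 3.73 TPM and Idh2 2.15 TPM.

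**Figure D3:**
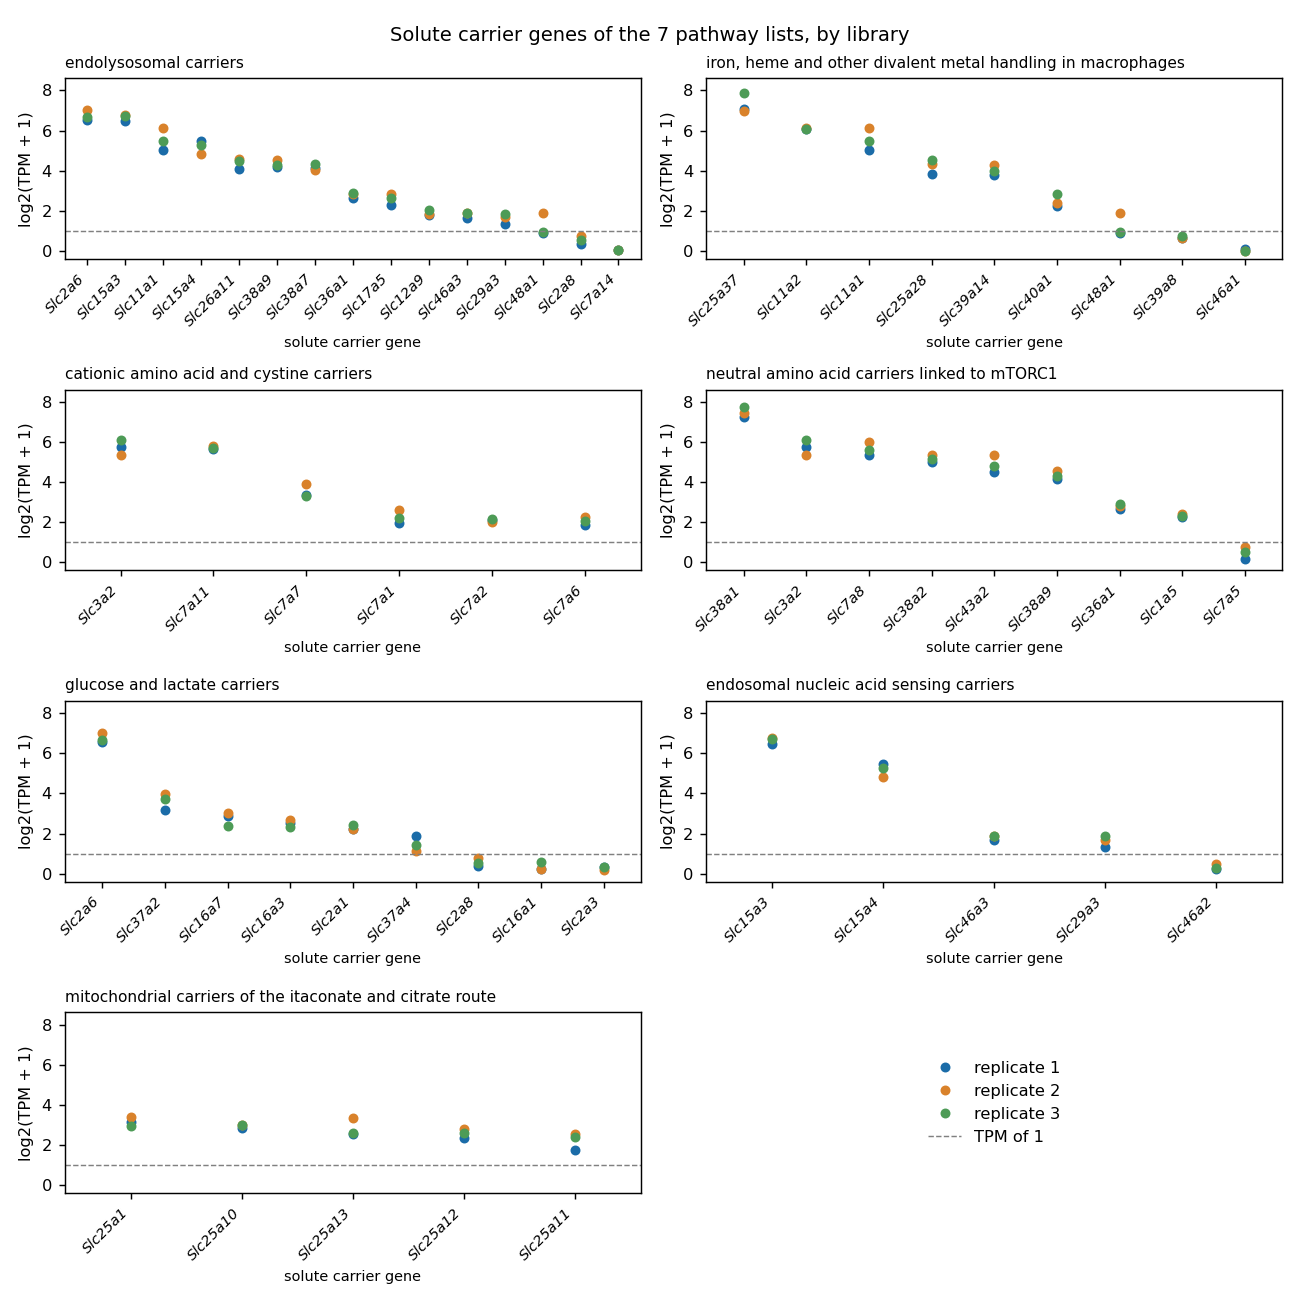
Level of each solute carrier of the pathway lists in the 3 libraries, as log2(TPM + 1), with a dashed line at 1 TPM. Each panel is a list ordered by mean, and points under the line, such as Slc7a5 and Slc16a1, belong to genes that the rule left out.

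Near the threshold, the values just inside were Slc35a5 at 1.02, 1.93 and 1.65 TPM, Slc22a21 at 1.17, 2.18 and 1.13 TPM and Slc35e3 at 1.19, 1.20 and 2.14 TPM. Just outside were Slc25a29 at 1.1, 1.38 and 0.92 TPM, Slc48a1, Slc45a4 at 0.89, 1.55 and 1.66 TPM, and Slc7a3 at 0.87, 1.00 and 1.47 TPM. Genes on both sides of the threshold had overlapping values.

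Several carriers known from other tissues were within the detected set. Of 12 listed carriers of other cells, 1 was detected, the hepatocyte bile acid importer Slc10a1, at 6.89, 7.93 and 7.08 TPM. It lies 2675 bases from the splicing factor gene Srsf5, on the opposite strand, which had 488 ± 76.5 TPM (SD, n = 3). Slc18a1, a vesicular monoamine carrier of endocrine cells, had 4.32, 8.71 and 2.77 TPM and overlaps the proton pump subunit gene Atp6v1b2 (97.9 TPM) on the opposite strand. Slc25a18, a mitochondrial glutamate carrier, averaged 12.3 TPM and overlaps Atp6v1e1 (113 TPM), likewise opposite. Slc24a5, a cation exchanger of pigment granules, averaged 2.27 TPM and overlaps Myef2 (17.9 TPM), likewise opposite. In all, 41 of the 140 genes overlapped another detected gene, 34 of them on the opposite strand, and 13 overlapped a gene with a TPM at least as high. The same shares over all detected genes were not counted, so these counts are not a trait of carriers. Strand use in the counting, not given in the sources used here, bears on the values of overlapping genes. Without strand, reads from a gene and its opposite partner cannot be told apart.

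The spread between libraries was described on expected counts. The median biological coefficient of variation per gene (edgeR) was 0.163 for the detected carriers and 0.175 for all 12505 genes kept, and it was 0.120 and 0.128 without replicate 2. These sets are not alike: the genes kept passed a count filter only, while the carriers were chosen at 1 TPM or more in every library. For the 112 carriers at a mean count of 100 or more, log2(TPM + 1) had a median SD between libraries of 0.26, against 0.24 in 5963 other genes. Slc15a2, a proton-coupled peptide importer, varied most, at 5.56, 6.92 and 1.35 TPM, with replicate 3 apart from both others. Slc6a8, Slc7a15, Slc35f6, Slc11a1 and Slc27a1 came next, all with the highest TPM in replicate 2. The smallest SDs in the gene tables were those of Slc25a22, a mitochondrial glutamate carrier (0.02), Slc38a6 and Slc11a2 (0.03 each), Slc44a2 (0.05) and Slc12a7 (0.07). With kallisto, they were 0.26 for Slc25a22, 0.16 and 0.18 for Slc38a6 and Slc11a2, 0.06 for Slc44a2 and 0.02 for Slc12a7, and after centring each library of the gene tables on its median over detected genes they were 0.21, 0.18, 0.18, 0.19 and 0.13. All 5 SDs were larger after centring. The deposited intervals of Slc25a22 also lay above its TPM of 9.63, 9.41 and 9.48, the lowest bound being 10.5 TPM. This was not particular to Slc25a22, since the deposited intervals were not always centred on the TPM. Those of Slc9a9 (171 to 184, 184 to 198 and 199 to 215 TPM) lay below its TPM in every library. So did those of Slc38a1 (137 to 145, 155 to 165 and 197 to 207 TPM).

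The level also depended on which quantification was read. The summed TPM of the second set of transcript tables, those with kallisto's column names, was 1.64 times the gene table's for the median detected carrier and 1.58 times for the median detected gene. Spearman's rho between both mean levels was 0.928 over the 140 genes of these same libraries, given as a description. All 140 genes also passed 1 TPM in every library in the second set, where 187 carriers did. Slc44a1, a choline carrier, had 262, 274 and 233 TPM with kallisto against 68.4, 52.0 and 73.9 TPM in the gene tables, where it was the highest of the lipid and choline group. The largest differences were Slc7a7, at 71.2 TPM with kallisto against 10.7 TPM in the gene tables, Slc22a15 at 16.2 against 2.85 TPM, and Slc12a9, a relative of the cation/chloride carriers found on lysosomes, at 14.5 against 2.72 TPM. For Slc7a7 the leading kallisto transcript was a processed transcript of 492 bases at 25.2 TPM. In 11 genes the order was turned, with Slc25a22 at 7.75 TPM with kallisto against 9.51 TPM.

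**Figure D4:**
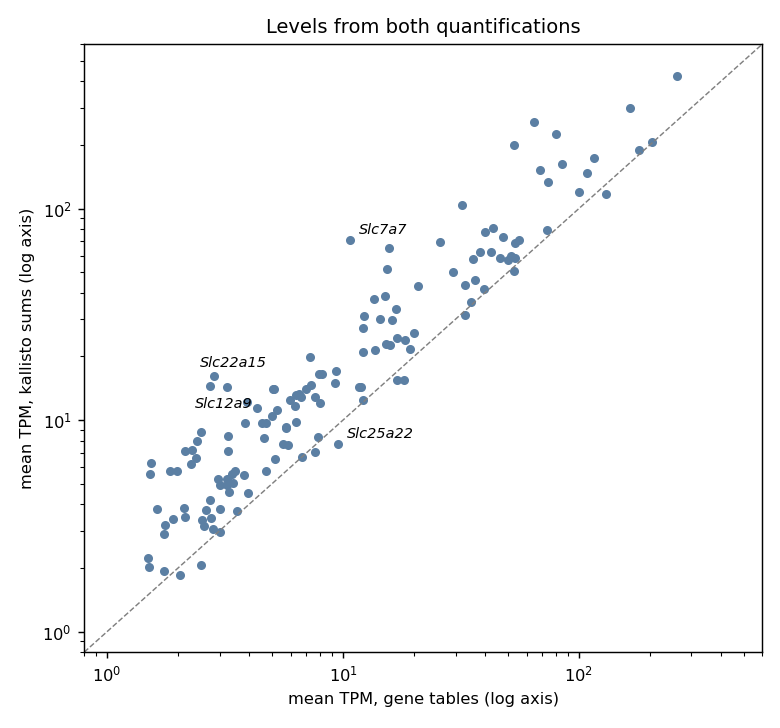
Mean TPM of each detected carrier from the kallisto transcript sums (vertical) against the gene tables (horizontal), both on log axes, with a dashed line of equality. Most points lie above the line, up to 6.65 times for Slc7a7.

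Transcript classes were compared next, since chromatin RNA holds transcripts with introns still in place and the annotation lists some of these as retained-intron transcripts. Over the summed TPM of the detected carriers, protein-coding transcripts held 46.8% ± 2.14, retained-intron transcripts 37.4% ± 1.59, processed transcripts without an open reading frame 13.6% ± 0.697 and transcripts marked for nonsense-mediated decay 2.21% ± 0.186 (SD, n = 3 each). In the other detected genes, the shares were 48.0%, 39.6%, 8.82% and 3.60% in the same order. The leading transcript was protein-coding in 83 carriers (59.3%, against 60.2% of the other detected genes), a retained-intron transcript in 38 (27.1%, against 30.9%), a processed transcript in 17 (12.1%, against 6.70%) and a decay target in 2 (1.43%, against 2.14%). The leading transcript was the same one with kallisto in 76 of the 140.

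The ratio of summed retained-intron TPM to summed protein-coding TPM was tested per gene against equality. The ratio was not part of the rule, but the gene TPM that the rule used contains the TPM of both classes. Some carriers passed the rule only through the class called higher, such as Slc27a1, whose coding transcripts had 0.42, 0.42 and 0.30 TPM. The test is thus not independent of the choice, and the calls describe these carriers. The test was limma on log2((retained-intron TPM + 0.5)/(protein-coding TPM + 0.5)) with Benjamini-Hochberg adjustment over all 5597 genes that have both classes, and a call needed an adjusted p under 0.05. Of the 140 carriers, 90 had both classes. Retained-intron transcripts were higher in 36 of them (40.0%, against 35.5% of all genes tested), coding transcripts were higher in 28 (31.1%, against 31.9%), and 26 were not called. Both shares were near the background. The median log2 ratio was 0.12 in the carriers and 0.08 in all genes tested. With the mean TPM per annotated transcript in place of the sum, retained-intron transcripts were higher in 44 carriers (48.9%, against 43.2% of all genes tested) and coding transcripts in 16 (17.8%, against 22.7%), so the split moved in the same direction in all genes.

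The largest ratio in the first set of tables was that of Slc27a1, a fatty acid importer (55.6 TPM in all). Its 3 retained-intron transcripts summed to 37.4, 77.8 and 50.6 TPM and its 4 coding ones to 0.42, 0.42 and 0.30 TPM, a log2 ratio of 5.92 ± 0.20 (SE, n = 3, limma adjusted p = 2.77e-07). Slc4a7 followed, with 84.2, 110 and 103 TPM in 6 retained-intron transcripts and 3.39, 5.05 and 6.00 TPM in 1 coding transcript, a log2 ratio of 4.25 ± 0.15 (SE, limma adjusted p = 2.88e-07). With kallisto the order changed, to 5.69 for Slc4a7, 4.51 for Slc12a7 and 3.87 for Slc27a1, and per annotated transcript the ratio was 4.93 for Slc27a1 and 1.70 for Slc4a7, all called but for Slc12a7 per transcript. In neither Slc27a1 nor Slc4a7 did the classes come near each other in any library. Slc25a28 had 4.80, 8.58 and 8.78 TPM in its retained-intron transcript against 0.38, 0.65 and 0.69 TPM in coding ones.

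The introns concerned can be read from the annotated transcripts. Shown here are both ends of introns that lie whole within a retained-intron transcript and that a coding transcript of the same gene removes between coding exons, 25 bases on each side, with exon bases in lower case and intron bases in capitals. The sequences are GENCODE M21 transcripts (mm10), written 5′ to 3′ on the gene's strand. All 5 introns begin with GT and end with AG. In the transcript Slc27a1-203, at 13.7, 33.0 and 19.0 TPM, a 108-base intron (chr8:71579799-71579906) and a 65-base intron (chr8:71580702-71580766), both on the plus strand, are kept:
Slc27a1 108-base intron, 5′ end: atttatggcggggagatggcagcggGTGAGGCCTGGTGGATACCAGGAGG
Slc27a1 108-base intron, 3′ end: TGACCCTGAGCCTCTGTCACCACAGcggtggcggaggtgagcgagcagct
Slc27a1 65-base intron, 5′ end: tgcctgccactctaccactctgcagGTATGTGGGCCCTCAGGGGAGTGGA
Slc27a1 65-base intron, 3′ end: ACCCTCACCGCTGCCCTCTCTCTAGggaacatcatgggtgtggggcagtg
In Slc4a7-213, at 14.3, 18.6 and 16.8 TPM, the intron kept has 1029 bases (chr14:14765711-14766739, plus strand), and in Slc25a28-202, at 4.80, 8.58 and 8.78 TPM, one kept intron has 1128 bases (chr19:43664644-43665771, minus strand):
Slc4a7 intron, 5′ end: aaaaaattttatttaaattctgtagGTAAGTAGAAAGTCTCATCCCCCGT
Slc4a7 intron, 3′ end: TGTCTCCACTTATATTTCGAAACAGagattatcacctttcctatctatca
Slc25a28 intron, 5′ end: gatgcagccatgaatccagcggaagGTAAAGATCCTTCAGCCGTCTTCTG
Slc25a28 intron, 3′ end: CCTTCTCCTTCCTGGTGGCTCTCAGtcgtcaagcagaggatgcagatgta
In Slc9a8-207, at 16.0, 26.2 and 19.8 TPM, it has 894 bases (chr2:167445608-167446501, plus strand):
Slc9a8 intron, 5′ end: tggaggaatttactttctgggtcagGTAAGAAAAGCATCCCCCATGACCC
Slc9a8 intron, 3′ end: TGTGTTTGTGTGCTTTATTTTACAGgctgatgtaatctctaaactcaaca
The tables give TPM per transcript and no reads over single junctions, so the level of one intron was not measured.

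Further carriers with more retained-intron TPM included Slc7a11, with 40.5, 45.4 and 40.6 TPM in retained-intron and 7.96, 9.17 and 10.9 TPM in coding transcripts (log2 ratio 2.12 ± 0.15, SE, limma adjusted p = 6.44e-06). Slc9a8, a sodium/proton exchanger of the Golgi, had 25.9, 43.5 and 31.4 TPM in retained-intron transcripts against 6.39, 6.17 and 10 TPM. For Slc12a7, a potassium/chloride cotransporter, and Slc1a5, the log2 ratios were 2.30 and 2.02, but 0.06 and 0.29 per annotated transcript, no longer called. Slc25a3 (1.78), Slc6a8 (1.13) and Slc6a6 (1.09) were called as well among the highest carriers. All these ratios were above 0 in every library.

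Coding transcripts were higher in Slc9a9, with 114, 108 and 129 TPM in its coding transcript against 9.99, 14.4 and 12.3 TPM in its retained-intron one (log2 ratio -3.22 ± 0.16, SE, limma adjusted p = 1.11e-06). Slc25a13 had a log2 ratio of -3.03 ± 0.28 (SE), with 3.53, 6.02 and 3.73 TPM in coding transcripts and a retained-intron transcript listed at 0 in replicates 1 and 2. Slc3a2 and Slc11a2 had ratios of -2.67 and -2.47, and both have 1 retained-intron transcript against 8 and 6 coding ones. Per annotated transcript their ratios turned to 0.22 and 0.05 and were not called. Slc43a2 (-2.42), Slc18a1 (-2.23), Slc39a6, a zinc importer (-2.14), Slc2a9, a urate carrier (-2.01), and Slc20a2, a phosphate importer (-1.81), kept their sign per transcript and with kallisto. The retained-intron TPM was 0 in every library for Slc2a9 and 0.1, 0 and 0 for Slc39a6. It was below 1 TPM in every library for Slc18a1 and Slc20a2. The 0.5 added to each class therefore weighs on the size of these 4 ratios. It weighs on others too, among them Slc25a13 and, with more retained-intron TPM, Slc27a1, Slc25a28 and Slc1a5. The lower class of each was below 1 TPM in every library. Slc38a1, Slc38a6, Slc25a37 and Slc15a3 were not called, with log2 ratios of 0.14, -0.18, -0.25 and -0.31. With kallisto, coding transcripts were higher in Slc38a6 (-0.35, limma adjusted p = 0.014), Slc25a37 (-1.73, limma adjusted p = 5.07e-06) and Slc15a3 (-1.05, limma adjusted p = 9.70e-05).

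**Figure D5:**
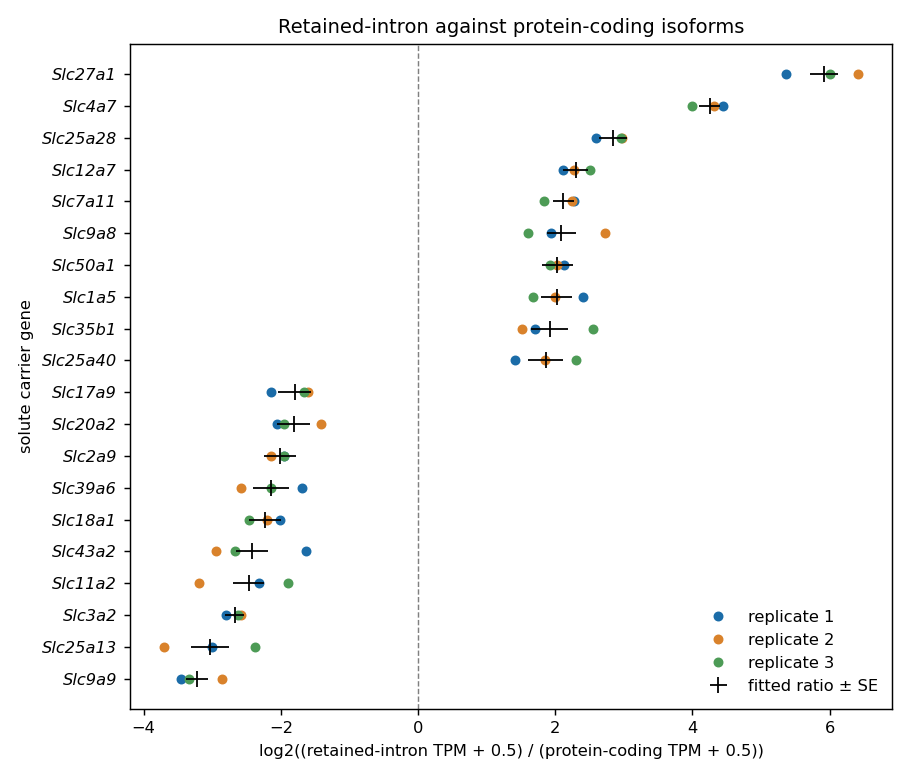
Log2 ratio of retained-intron to protein-coding TPM (0.5 added to each) for the 10 highest and the 10 lowest called carriers, 1 point per library, with the fitted value and its SE. Points right of the dashed line at 0 have more retained-intron TPM: Slc27a1 lies at 5.92 and Slc9a9 at -3.22.

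By role, retained-intron transcripts were higher in 9 and coding transcripts in 1 of 18 mitochondrial carriers tested, and in 0 and 4 of 5 nucleoside and vitamin carriers. Amino acid carriers had 7 and 2 of 14, inorganic ion carriers 7 and 6 of 14, and metal carriers 6 and 5 of 12. Over all genes tested the shares were 35.5% and 31.9%, the groups are small, and whether these counts differ between roles or from all genes was not tested. Both quantifications called the same direction for 30 of the 36 and 21 of the 28, and opposite directions for 6 carriers: Slc15a4 (log2 ratio -0.82 with kallisto, 1.18 in the first set), Slc12a9 (1.15 and -1.11), Slc17a9, the vesicular ATP carrier (1.34 and -1.80), Slc39a10, a zinc importer (1.53 and -0.95), Slc35b3 (0.40 and -0.54) and Slc7a6os (0.42 and -0.47). How often the calls matched over all genes tested was not counted. Kallisto also called retained-intron transcripts higher in more genes than the first set did, but among genes filtered on its own TPM, so the shares were not compared.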

How the data were processed

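RNA of the chromatin fraction was sequenced as ribosome-depleted total RNA (3 libraries, 1 group). The authors deposited gene and transcript tables with expected counts and TPM and their credibility bounds per the file headers, and a second set of transcript tables with estimated counts and TPM under column names that kallisto writes. The build is mm10 per the labels, and all 55536 gene identifiers of the tables occur in GENCODE M21. The aligner, the quantifier versions and the strand settings were not given in the sources used here. Rows naming no gene took 1.40%, 0.352% and 0.354% of the expected counts and stayed out of counts, shares and tests.

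Symbols, transcript types and positions came from GENCODE M21 and the transcript names. TPM was used as deposited, on a log2(TPM + 1) scale for medians. Depth sets precision at low levels, and the expected counts on genes per library are in the report. The isoform ratio was fitted with limma 3.58.1 in R 4.3.3 (intercept only, empirical Bayes with a trend on the mean log2 of summed TPM, mean summed TPM of at least 1, pseudocount 0.5). Spread was estimated with edgeR 4.0.16 (TMM, filterByExpr) on rounded expected counts, made whole for this fit. Both were tested on simulated data. Alternatives were the kallisto tables, other pseudocounts, thresholds and filters, TPM rescaled over nuclear coding genes, the mean per transcript, no variance trend, DESeq2 size factors (median of ratios, computed within the edgeR fit), and each replicate left out. P-values measure only the spread between these libraries. Members, role groups and lists were chosen with earlier results of these data known, and 4 genes named for a carrier were set apart after the files were read. Named genes were drawn from the 25 highest carriers, the highest and lowest of each role and all of short lists, those nearest the threshold, the most and least variable, the largest and smallest called isoform ratios, the largest differences between quantifications, and the partner genes, of which 1 is not reported here. Tools also included Python 3.11.15 with pandas 2.3.3.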

Additional observations from a re-analysis of the deposited data

Results flagged for a closer look

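Slc2a4rg-ps, a transcribed unitary pseudogene, carries a solute carrier symbol without a protein-coding transcript, so the report does not count it. It had 56, 63 and 63 expected counts and 1.1, 1.36 and 1.35 TPM in replicates 1, 2 and 3, a mean of 1.27 TPM. All 3 counts lie above the limit of 3 that a count of 0 allows, which covers counting error only. The other 7 such symbols did not pass that limit in all libraries.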

How the results depend on the processing

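The number of detected carriers, 140, ranged from 120 (TPM of at least 2) to 187 (kallisto), with 160 at 0.5 TPM, 176 after rescaling over nuclear coding genes, and 140 to 145 with a replicate left out. The median log2 level of 3.03 became 3.83 with kallisto and 5.09 after rescaling, which multiplies all genes of a library alike. Carriers with coding transcripts higher numbered 15 at a summed TPM of at least 5, where fewer genes are tested, and 16 per annotated transcript, against 28. Over all genes tested, the kallisto count with retained introns higher was 3198 against 1987, and the count with coding higher at a summed TPM of at least 5 was 1117 against 1783. In both settings the genes tested were filtered anew, with kallisto on its own summed TPM. These are therefore counts over unlike sets of genes, and the shares were not compared. Leaving out a replicate gave a median carrier coefficient of variation of 0.120 to 0.199 and a common one of 0.125 to 0.205, lowest without replicate 2.

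Of the 90 carriers with a ratio, 25 changed sign per annotated transcript and 17 with kallisto, called or not. Among the 25 highest, the listed and the 20 most extreme carriers, and counting those called in at least 1 of both settings, the log2 ratio turned sign per annotated transcript in Slc11a2 (0.05), Slc3a2 (0.22), Slc38a9 (-1.10), Slc11a1 (-0.31), Slc20a1 (-0.01), Slc38a6 (1.09), Slc25a37 (0.74), Slc37a2 (0.37), Slc16a3 (0.86), Slc40a1 (0.05), Slc46a3 (0.29) and Slc8b1 (1.74), where the divisor is the number of annotated transcripts. Among the same carriers it turned with kallisto in Slc17a9 (1.34), Slc15a4 (-0.82), Slc25a12 (-1.26), Slc25a36 (0.59) and Slc12a9 (1.15), and the cause was not tested. With only 1 group, no groups were compared, and the isoform ratio set both transcript classes against each other within each library.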
